A study of Mus musculus with 9 samples.

Results

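The regions described here are 2 stretches of the mouse genome that are dense in olfactory receptor (Olfr) genes, chr2:85200000-90000000 and chr9:37500000-40000000 of build mm9, in DNA methylation data from primordial germ cells of WT and Tet1-null female embryos. The members are the CpG positions that either deposited table lists inside these borders, which were set by position and not by methylation. They number 29444 of the 18722682 CpG positions listed in the whole series, 0.157%, with 19036 on chromosome 2 and 10408 on chromosome 9. All embryos were C57BL/6 at embryonic day 13.5. The WT group had 4 libraries made from 1575 to 5251 cells, and the Tet1-null (Tet1-/-) group had 5 libraries made from 1400 to 4700 cells. Bisulfite conversion used the Sigma kit in 2 libraries of each group, and the Zymo kit in the other 2 WT and 3 Tet1-null libraries. One of the WT libraries was sequenced in run 1, 1 in run 2 and 2 in run 3, against 2 Tet1-null libraries in run 2 and 3 in run 3. Tet1-null libraries 1 and 2 state the same number of input cells with different kits, and the titles of WT libraries 1 and 3 end in a number left unexplained, so the libraries may not all be separate samples. The labels give no detail of the Tet1 allele, and do not say whether each library came from its own embryo, or how the cells were isolated. DNA methylation alone was measured, so germ cell identity could not be checked against marker genes.

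Olfactory receptor genes form one of the largest gene families of the mouse. They encode the odorant receptors of the nose, stand in long tandem arrays, and each olfactory neuron expresses a single receptor allele. Primordial germ cells are the precursors of eggs and sperm and undergo genome-wide loss of DNA methylation on their way to the gonad, and Tet1 encodes a dioxygenase that oxidises 5-methylcytosine. Bisulfite sequencing reads 5-methylcytosine and 5-hydroxymethylcytosine alike, and both are called methylation below.

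Receptor gene arrays are poor in CG dinucleotides, the sites that these data measure, and start-site sequences of the receptor genes show how poor. No genome of build mm9 was used, so the sequences below are RefSeq windows of build GRCm38.p6, whose coordinates are not those of the methylation tables, and no window of the tables was assigned to a gene. In the RefSeq order of protein-coding genes, the longest unbroken row of Olfr genes on chromosome 2 ran from Olfr153 to Olfr1274 with 123 genes, 112 of which had a start-site window. The longest on chromosome 9 ran from Olfr160 to Olfr919 with 40 genes, 33 with a window. Each window holds 300 bases, most of them before the annotated start. For each row of genes, the window with the fewest, a median number and the most CG dinucleotides is shown, 5′ to 3′, with each CG in capitals (letters C and G in this order, searched on 1 strand because the motif is its own reverse complement). All 6 genes encode odorant receptors by their symbols. On chromosome 2 these are Olfr1130 (chr2:87605962-87606261, plus strand, 0 CG), Olfr1128 (chr2:87545493-87545792, minus strand, 1 CG) and Olfr1212 (chr2:88958218-88958517, plus strand, 7 CG). On chromosome 9 they are Olfr147 (chr9:38401461-38401760, 0 CG), Olfr25 (chr9:38329242-38329541, 1 CG) and Olfr877 (chr9:37854570-37854869, 6 CG), each on the plus strand.
Olfr1130: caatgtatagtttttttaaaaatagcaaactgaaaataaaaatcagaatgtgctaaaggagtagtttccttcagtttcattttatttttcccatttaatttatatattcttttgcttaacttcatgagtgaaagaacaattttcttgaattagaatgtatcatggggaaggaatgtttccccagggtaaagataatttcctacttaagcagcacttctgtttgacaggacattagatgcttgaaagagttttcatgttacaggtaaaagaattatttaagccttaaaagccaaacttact
Olfr1128: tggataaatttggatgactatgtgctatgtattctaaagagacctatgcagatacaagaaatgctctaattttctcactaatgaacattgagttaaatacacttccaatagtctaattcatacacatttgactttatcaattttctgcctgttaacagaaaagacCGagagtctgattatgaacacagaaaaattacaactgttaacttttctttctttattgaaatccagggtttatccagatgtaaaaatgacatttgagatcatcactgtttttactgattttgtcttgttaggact
Olfr1212: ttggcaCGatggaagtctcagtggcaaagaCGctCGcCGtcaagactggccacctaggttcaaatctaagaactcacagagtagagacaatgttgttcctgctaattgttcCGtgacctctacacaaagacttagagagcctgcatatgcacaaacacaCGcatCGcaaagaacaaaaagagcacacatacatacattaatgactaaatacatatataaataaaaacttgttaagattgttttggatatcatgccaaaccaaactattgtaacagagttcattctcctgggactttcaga
Olfr147: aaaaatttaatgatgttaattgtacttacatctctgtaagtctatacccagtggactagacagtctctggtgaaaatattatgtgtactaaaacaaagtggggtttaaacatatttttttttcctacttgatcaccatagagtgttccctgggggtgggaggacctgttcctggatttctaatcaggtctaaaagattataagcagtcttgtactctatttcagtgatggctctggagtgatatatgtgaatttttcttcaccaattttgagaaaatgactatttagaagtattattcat
Olfr25: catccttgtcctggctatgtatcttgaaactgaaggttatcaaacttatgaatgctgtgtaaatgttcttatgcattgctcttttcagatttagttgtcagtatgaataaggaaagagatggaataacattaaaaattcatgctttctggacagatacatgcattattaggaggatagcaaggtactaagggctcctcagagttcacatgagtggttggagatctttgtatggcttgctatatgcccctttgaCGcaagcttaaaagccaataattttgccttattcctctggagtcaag
Olfr877: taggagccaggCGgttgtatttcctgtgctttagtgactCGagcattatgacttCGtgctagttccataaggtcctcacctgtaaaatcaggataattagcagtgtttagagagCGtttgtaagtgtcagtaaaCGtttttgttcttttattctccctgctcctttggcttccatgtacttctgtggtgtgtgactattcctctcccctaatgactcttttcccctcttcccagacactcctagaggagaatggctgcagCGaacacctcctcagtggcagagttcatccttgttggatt

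The median start-site window of both rows of receptor genes held 1 CG, against 8 in the 26081 windows of genes that are not Olfr genes. No CG was present in 39 of 112 windows on chromosome 2 (34.8%) and 10 of 33 on chromosome 9 (30.3%), compared with 4.77% of the windows of other genes. None of the 145 receptor windows held 10 or more, whereas 45.5% of the others did. The median share of G and C bases was 32% on chromosome 2, 36.3% on chromosome 9 and 53.3% in other genes. The annotated start was an ATG in 67.6% of the receptor windows and in 4.37% of the others, so that for many receptor genes the annotated start is the start of the coding sequence and the window need not hold the promoter.

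**Figure D1:**
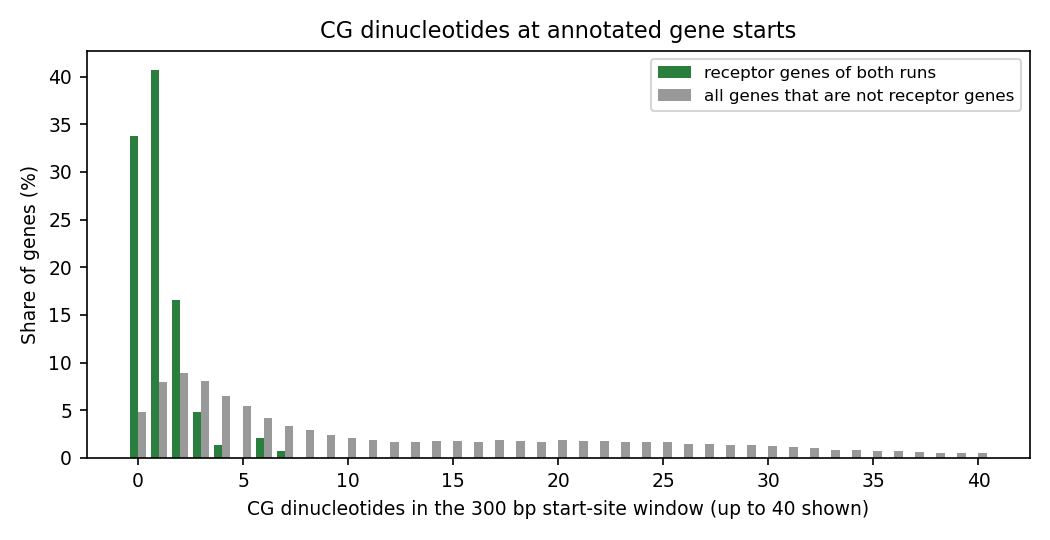
Share of genes (y axis, %) by the number of CG dinucleotides in the 300-base RefSeq start-site window (x axis), for the 145 receptor genes of both rows and for the genes that are not Olfr genes. The receptor genes pile up at 0 and 1 CG and none exceeds 7, while the other genes spread over the whole axis.

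The same poverty in CpG was seen in the positions listed in the methylation tables. They lay at 3.97 per kb in the chromosome 2 span and 4.16 per kb in the chromosome 9 span, counted over the full length. The rest of these chromosomes had 7.98 and 8.14 per kb, counted only over 1 kb windows with a listed position. The smaller base raises the values of the rest. Among 1 kb windows with a listed position, the median number of positions was 4 in each span and 7 in the rest. A position was covered by 2.20 reads on average in the WT and 2.83 in the Tet1-null pool in the chromosome 2 span, and by 2.25 and 2.77 in the chromosome 9 span. Depth in the rest of both chromosomes was 2.24 and 2.89, so the spans were sequenced as deeply per site. The deepest site of the spans had 41 reads, and none of their 1 kb windows exceeded 20 times the median depth, which 49 windows in the rest did. Across the whole series the WT pool held 30386353 reads over 13730600 sites and the Tet1-null pool 46716079 reads over 16372728 sites.

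The tables pool the libraries of a genotype, so each value below is 1 value per pool with no replicate. Intervals are 95% counting intervals (Wilson for a level, Newcombe for a difference of levels) and do not cover the spread between libraries. With the libraries pooled, kit, run and cell number cannot be told apart from the genotype. A level is the share of reads at CpG positions that are methylated, and differences are in percentage points. Reads are counted at each CpG position and summed, so a read over several positions counts at each of them. The counting intervals treat these counts as independent.

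Both receptor spans were more methylated than the chromosomes around them. In the WT pool 1471 of 30425 reads were methylated in the chromosome 2 span, a level of 4.83% (4.60 to 5.08%). The chromosome 9 span had 1018 of 17404, a level of 5.85% (5.51 to 6.21%). The rest of the same chromosomes stood at 3.15% and 3.32%. In the Tet1-null pool the levels were 5.83% (5.62 to 6.04%, 2731 of 46883 reads) and 5.65% (5.37 to 5.94%, 1406 of 24882 reads), against 3.83% and 3.99% in the rest. The 1 Mb on each side of the spans was lower than the spans in both pools. Those flanks had 3.54% and 2.55% in the WT pool before and after the chromosome 2 span, and 2.36% and 2.18% beside the chromosome 9 span. In the Tet1-null pool the corresponding levels were 4.27%, 3.50%, 3.26% and 3.17%. On chrM, which serves as a background of unconverted cytosines, the level was 1.66% in the WT and 1.29% in the Tet1-null pool.

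The Tet1-null pool was higher than the WT pool in the chromosome 2 span, by 0.990 points (0.667 to 1.31) or 1.20-fold. This was not particular to the span. The rest of chromosome 2 was higher by 0.684 points (0.653 to 0.715) or 1.22-fold, and the flanks of the span by 0.730 and 0.950 points. In the chromosome 9 span the difference was -0.199 points (-0.654 to 0.250) and not separated from 0. The rest of chromosome 9 was higher in the Tet1-null pool by 0.670 points (0.633 to 0.708), and the flanks of its span by 0.899 and 0.994 points. Over both spans the level was 5.20% in the WT and 5.76% in the Tet1-null pool, a difference of 0.561 points (0.297 to 0.822), beside 0.678 points (0.654 to 0.701) in the rest of both chromosomes. The difference between pools was larger in the chromosome 2 span than in the chromosome 9 span by 1.19 points (0.635 to 1.74), a comparison added after the values were seen. With the mean of site levels in place of reads, that contrast was 0.505 points (-0.286 to 1.30) and not separated from 0. Sites at least 100 bp apart gave 0.344 points (0.0663 to 0.618) over both spans and 0.653 (0.313 to 0.988) on chromosome 2, and with the chrM level subtracted both spans gave 0.932 points (0.623 to 1.24). As a mean of site levels, both spans gave 0.891 points (0.521 to 1.26). Taken from the spread between 100 kb windows, the interval of the 0.561 points was wider, 0.0675 to 1.05. The sign on chromosome 9 rested on 1 window of 100 kb, since without the one from 38200001 to 38300000 the difference was 0.179 points (-0.273 to 0.625).

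**Figure D2:**
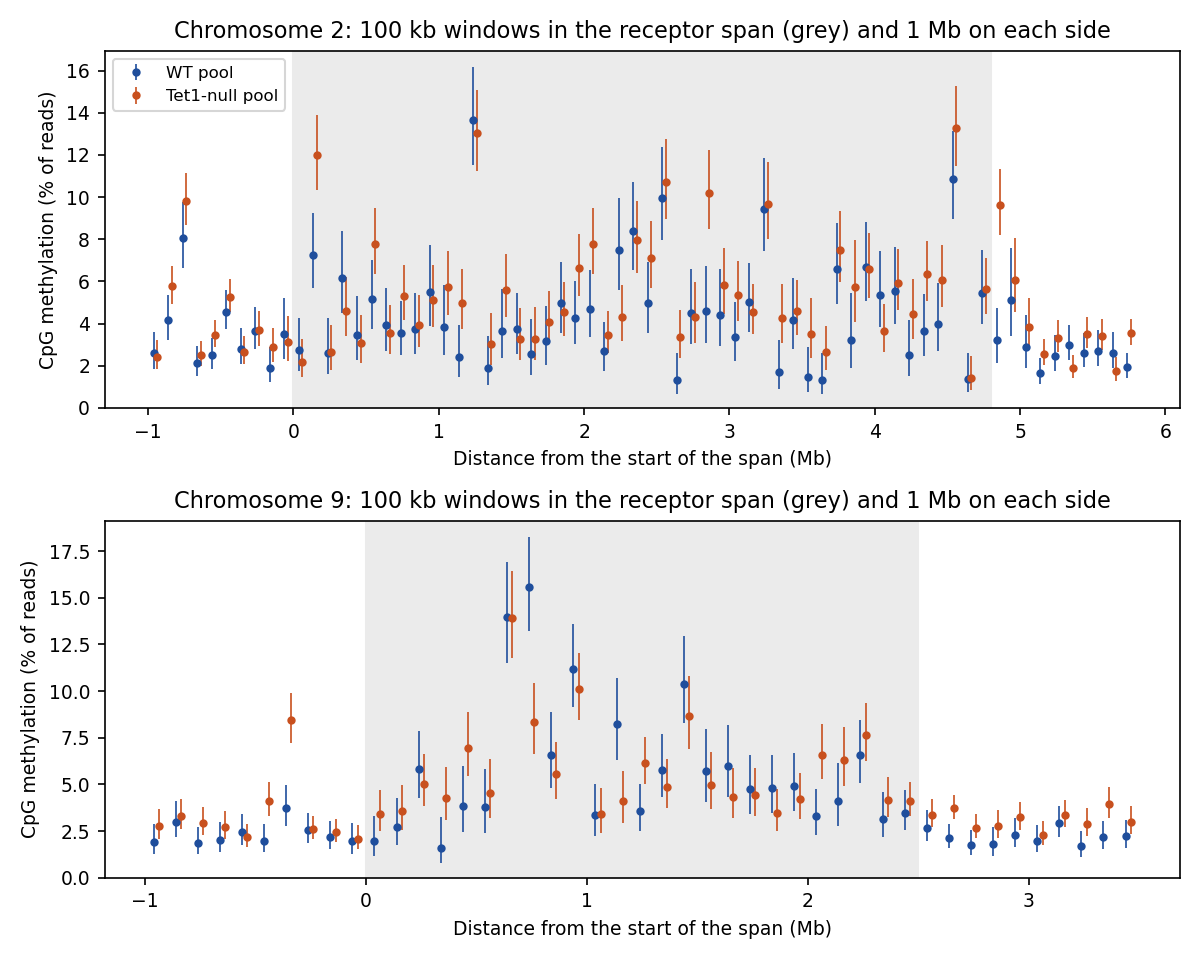
Methylation level (y axis, % of reads) of 100 kb windows along each receptor span (grey) and 1 Mb on each side, by distance from the start of the span (x axis, Mb), for the WT pool and the Tet1-null pool; bars are Wilson 95% intervals. Peaks above 10% stand in the same windows in both pools in several places, such as 13.7% and 13.0% near 1.2 Mb on chromosome 2 and 13.99% and 13.9% near 0.6 Mb on chromosome 9.

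The spans also exceeded the rest where windows had the same number of CpG positions. The rest of chromosomes 2 and 9 was weighted to the spans' reads by the number of CpG positions per 1 kb window (1 to 14, and 15 or more), which gave 2.85% in the WT and 3.34% in the Tet1-null pool. The spans stood above this by 2.35 points in the WT pool (2.16 to 2.55) and by 2.43 points in the Tet1-null pool (2.26 to 2.59), or 1.83-fold and 1.73-fold. Intervals from the spread between 100 kb windows were wider, 1.78 to 2.92 (WT) and 1.94 to 2.91 (Tet1-null). The Mantel-Haenszel odds ratio over the same classes was 1.89 (1.82 to 1.97) and 1.79 (1.74 to 1.85). The excess did not differ between the pools beyond counting error, at 0.0832 points with an interval of -0.174 to 0.341. Its size depended on which part of the chromosomes and which sites were used, although its intervals stayed above 0. It was 1.26 points (WT) and 1.34 (Tet1-null) against 100 kb windows of the rest within the span windows' range of CpG numbers, 237 to 653. Those windows were not matched further and held a median of 482 positions, against 396 in the span windows. The excess was 1.07 and 1.01 at sites at least 100 bp apart, and 1.09 and 1.39 at sites that both pools covered with 3 or more reads.

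The excess lay in windows with more CpG positions. The 4413 windows of 1 kb with 1 to 4 positions made up 64.6% of span windows with a position. They had 2.66% in the WT and 3.11% in the Tet1-null pool, and the rest at the same CpG numbers had 2.65% and 3.07%. The difference of spans and rest there was 0.00556 points (-0.219 to 0.248) for WT and 0.0474 points (-0.152 to 0.259) for Tet1-null. Within this class, the 876 windows with a single position were an exception in the Tet1-null pool, at 3.77% (85 of 2257 reads) against 2.89% in the rest, a difference of 0.878 points (0.142 to 1.76). That interval is not corrected for the number of classes. The same windows differed by -0.182 points (-0.923 to 0.795) in the WT pool. Windows with 2 positions differed by -0.420 points (-0.797 to 0.0110) in the Tet1-null pool. At 5 to 9 positions the spans had 4.09% and 4.28%, compared with 2.77% and 3.27% in the rest, and at 10 to 14 positions 8.41% and 10.6%, compared with 2.99% and 3.76%.

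Methylation was highest in the most CpG-dense windows of the spans. The 129 windows with 15 or more positions stood at 21.7% in the WT pool (734 of 3382 reads, 20.3 to 23.1%) and, in the Tet1-null pool, at 22.8% (1139 of 4989 reads, 21.7 to 24.02%). Windows of that kind in the rest had 4.37% and 5.20%. The 129 span windows made up 1.89% of those with a position but held 29.5% of the methylated reads of the spans in the WT and 27.5% in the Tet1-null pool. The 16 windows with 25 or more positions reached 36.3% (32.6 to 40.02%) and 34.5% (31.5 to 37.6%). In 100 kb windows of the rest within the span windows' range of CpG numbers, windows with 15 or more positions had 13.7% and 15.2%. The spans exceeded these by 8.03 points (6.65 to 9.47) in the WT and by 7.67 points (6.51 to 8.87) in the Tet1-null pool. In 100 kb windows of the rest with more CpG positions than any span window, windows with 15 or more positions had 3.44% and 4.18%. A repeat or gene annotation of mm9 was not used here, so what these dense windows contain was not examined.

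**Figure D3:**
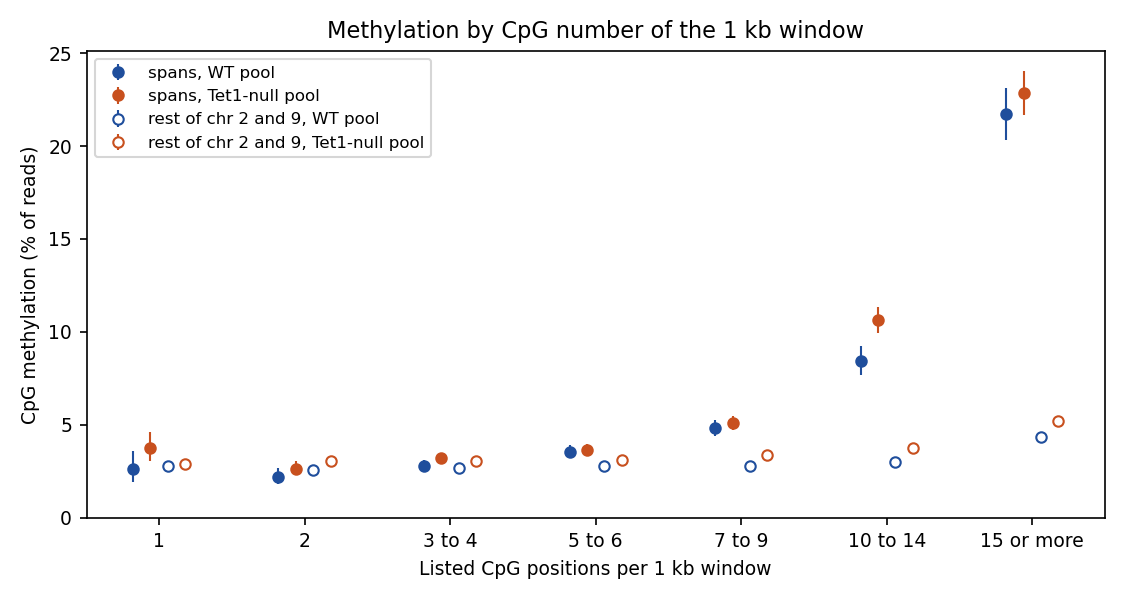
Methylation level (y axis, % of reads) by the number of listed CpG positions per 1 kb window (x axis), for the receptor spans (filled) and the rest of chromosomes 2 and 9 (open) in both pools; bars are Wilson 95% intervals. Spans and rest differ by less than 1 point up to 4 positions and lie farther apart with more, at 21.7% and 22.8% in the spans against 4.37% and 5.20% in the rest at 15 or more.

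The dense windows differed widely among themselves. Of the 129, 126 had 5 reads or more in each pool, and their median level was 13.1% in the WT and 21.8% in the Tet1-null pool, with lower quartiles of 0.446% and 4.91% and an upper quartile of 33.3% in each. A level of 20% or more was found in 51 in the WT and 66 in the Tet1-null pool, 42 of them in both, and 9 had no methylated read in either pool. The levels of the pools were related with Pearson's r at 0.559 and Spearman's rho at 0.595 over these windows, given as a description across places that share libraries and reads of unequal depth. A wide spread was not particular to the spans. Of 2477 dense windows of the rest in 100 kb windows within the span windows' range of CpG numbers, 30.4% (WT) and 34.2% (Tet1-null) had 20% or more, against 40.5% and 52.4% in the spans. Their upper quartiles were 25% and 27.9%, and Pearson's r was 0.681. Dense windows of the chromosome 2 span rose from 20.3% to 23.4%, by 3.12 points (0.712 to 5.49). Those of the chromosome 9 span had 23.5% and 22.0%, a difference of -1.43 points (-4.23 to 1.32).

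Levels were also higher in windows next to dense ones. Only windows with fewer than 10 positions were counted here, in the spans and in the rest. The distances were not compared at the same CpG number, so distance and CpG number cannot be told apart. Those adjoining a dense window in the spans had 8.12% in the WT and 11% in the Tet1-null pool. The next windows out, 2 kb away, had 4.56% and 3.55%, windows 3 to 5 kb away 4.49% and 4.83%, and those 11 kb or more away 3.03% and 3.38%. In 100 kb windows of the rest within the span windows' range of CpG numbers, the levels were 6.31% and 6.59% beside a dense window and 2.71% and 3.12% at 11 kb or more.

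Along the spans, 73 windows of 100 kb were measured, 48 on chromosome 2 and 25 on chromosome 9, each with 237 to 653 CpG positions, 404 to 1178 reads in the WT pool and 559 to 1797 in the Tet1-null pool. Their levels ran from 1.32% through a median of 4.27% to 15.6% in the WT pool, and from 1.44% through 4.98% to 13.9% in the Tet1-null pool. High windows were mostly high in both pools, with Pearson's r at 0.770 and Spearman's rho at 0.679 over the 73 windows, again as a description. Of these windows, 57 lay above the median, 3.56% with both pools summed, of the 1172 windows of the rest within the same range of CpG numbers, taken as 1 group. Above the 90th percentile of that group, 8.55%, lay 9. By classes of 50 positions, the span windows above the rest median numbered 5 of 12 at 300 to 349 positions and 16 of 24 at 350 to 399. They numbered 21 of 24 at 400 to 449, 6 of 6 at 450 to 499 and 3 of 4 at 500 to 549.

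The 3 highest windows of the chromosome 2 span were at 86400001 to 86500000 (13.7% in the WT and 13.0% in the Tet1-null pool), 89700001 to 89800000 (10.9% and 13.3%) and 87700001 to 87800000 (9.96% and 10.7%). In the chromosome 9 span they were at 38100001 to 38200000 (13.99% and 13.9%), 38200001 to 38300000 (15.6% and 8.34%) and 38400001 to 38500000 (11.2% and 10.1%). Dense 1 kb windows numbered 3 to 7 in each of these 6, and they held from 27.5% of the methylated reads in the window at 89700001 to 70.5% in the one at 86400001. The window at 89700001 kept levels of 10.5% and 11.1% without its dense windows, whereas the one at 86400001 had 5.03% and 6.19% without them.

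The lowest windows of the chromosome 2 span were at 89800001 to 89900000 (1.39% and 1.44%), 88800001 to 88900000 (1.32% and 2.66%) and 85200001 to 85300000 (2.75% and 2.18%), with at most 1 dense window each. The first of these adjoins one of the highest windows. On chromosome 9 they were at 37500001 to 37600000 (1.99% and 3.42%), 37600001 to 37700000 (2.74% and 3.57%) and 37800001 to 37900000 (1.58% and 4.30%), all near the start of the span. They had 2, 1 and 0 dense windows, and the 2 dense windows at 37500001 held 0% of the methylated reads there. Over the 73 windows, the level of both pools summed followed the number of dense windows with a Spearman rho of 0.597, a description in which both measures come from the same positions. The 17 windows without a dense one had a median of 3.38% and at most 5.91%, and the 21 with 3 or more had a median of 7.20%, from 3.16% upward.

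**Figure D4:**
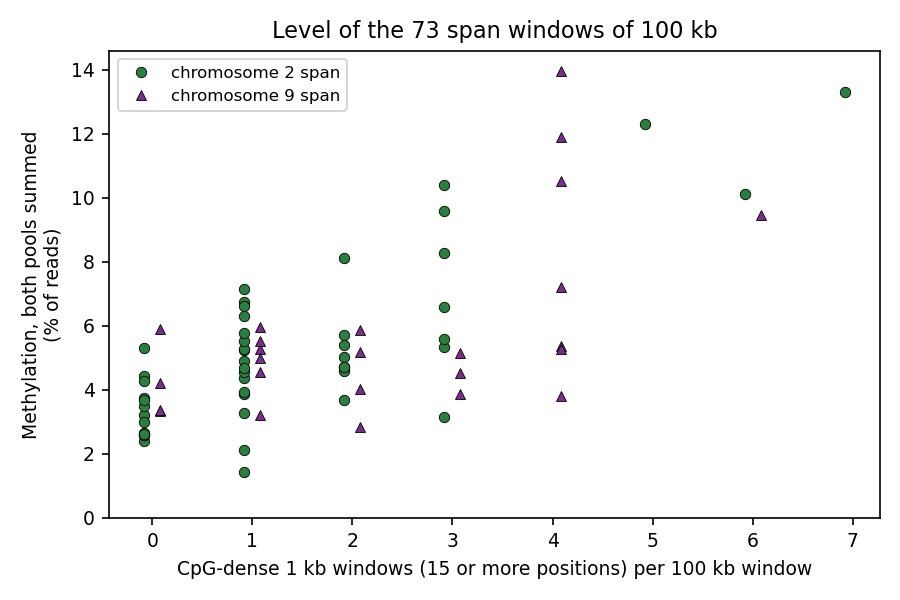
Methylation level of the 73 span windows of 100 kb with both pools summed (y axis, % of reads) against the number of 1 kb windows with 15 or more CpG positions they hold (x axis), with the chromosomes drawn slightly apart sideways. The 17 windows without a dense one stay at or below 5.91%, and windows with 3 or more spread from 3.16% upward.

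Between the pools, the Tet1-null level was the higher one in 34 of 48 windows of the chromosome 2 span and in 12 of 25 of the chromosome 9 span, 46 of 73 in all, where 72.5% of the 25384 windows of chromosomes 1 to 19 and X were higher. Fisher's exact test (two-sided, p-values adjusted over those 25384 windows by Benjamini-Hochberg) called 4 span windows higher in the Tet1-null pool (5.48% of 73, background 12.3%) and 2 lower (2.74%, background 1.33%). This test compares the reads of the pools and not the genotypes, and it treats reads at neighbouring positions as independent. By a quasi-binomial F test, which takes in the spread between the 1 kb windows of a 100 kb window, no span window was called in either direction (background 0.13% higher and 0.00394% lower). At an unadjusted p under 0.05 by that test, 8 span windows were higher and 3 lower. The share of all windows at that unadjusted threshold was not computed, so no excess can be read from these counts.

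In the chromosome 2 span the largest rises were at 88000001 to 88100000, from 4.58% (24 of 524 reads) to 10.2% (103 of 1009 reads, adjusted p = 0.00343, Fisher's exact test), and at 85300001 to 85400000, from 7.27% to 11.99% (adjusted p = 0.00741). Outside its 6 dense windows, the latter had levels of 2.97% and 8.50%. The largest falls of that span did not pass the test, at 87400001 to 87500000 with 7.49% and 4.31% (adjusted p = 0.0658, Fisher's exact test) and at 89200001 to 89300000 with 5.36% and 3.63% (adjusted p = 0.281).

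In the chromosome 9 span the window at 38200001 to 38300000 fell from 15.6% (125 of 802 reads) to 8.34% (69 of 827 reads, adjusted p = 0.000557, Fisher's exact test). Its 4 dense windows held 63.4% of its methylated reads, and the levels without them were 5.84% and 4.58%. The window at 38600001 to 38700000, which holds no dense window, fell from 8.25% to 4.11% (adjusted p = 0.0178, Fisher's exact test). Rises were called at 39500001 to 39600000, from 3.32% to 6.60% (adjusted p = 0.0195, Fisher's exact test), and at 38700001 to 38800000, from 3.56% to 6.16% (adjusted p = 0.0471), the latter named after its values were seen because it passed the test. The window at 37900001 to 38000000 had 3.84% and 6.96% and did not pass Fisher's exact test (adjusted p = 0.101).

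**Figure D5:**
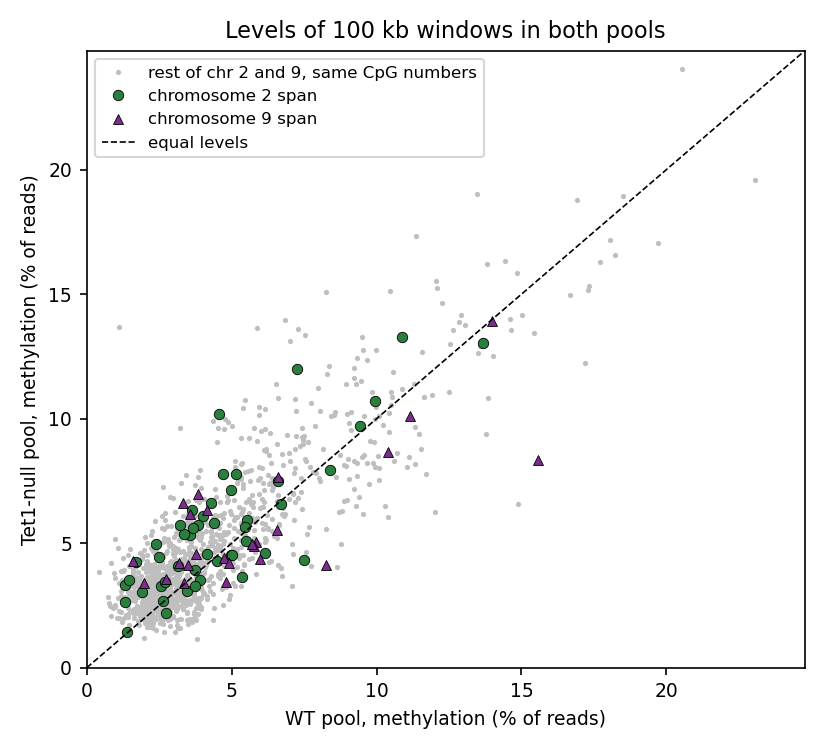
Methylation level of 100 kb windows in the Tet1-null pool (y axis, % of reads) against the WT pool (x axis, % of reads), for both receptor spans over the 1172 windows of the rest of chromosomes 2 and 9 within the same range of CpG numbers (grey). The dashed line marks equal levels. The chromosome 9 window with 15.6% and 8.34% lies farthest below the line among the span windows, and 34 of 48 chromosome 2 windows lie above it.

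At 1 kb, CpG poverty left few windows that could be tested. Of 6828 span windows with a position, 175 (2.56%) met the minimum of 5 positions with reads from each pool and 20 reads per pool, compared with 17.0% in the rest. A call needed 20 points of difference besides an adjusted p under 0.05, and no window was called in either direction by Fisher's exact test (background 0.097% higher and 0.0637% lower) or by the quasi-binomial test. At an unadjusted p under 0.05 by Fisher's exact test, 14 of the 175 were higher and 8 lower. Over chromosomes 1 to 19 and X, 9570 of 372073 were higher and 7098 lower at that threshold. The smallest adjusted p was 0.101 (Fisher's exact test). The Tet1-null level was higher in 80, lower in 61 and equal in 34, and those 34 had no methylated read in either pool.

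Highly methylated windows were found in both pools. A level of 50% or more was reached by 9 of the 175 in the WT pool (5.14%, background 0.609%), by 12 in the Tet1-null pool (6.86%, background 0.588%) and by 5 in both (background 0.235%). Among windows with 15 or more positions the shares were 7 of 70 in the WT pool (10.0%, Wilson 4.93 to 19.2%) and 11 of 70 in the Tet1-null pool (15.7%, 9.01 to 26.0%), against 0.912% and 0.893% of the 21829 such windows in the rest. The share at 50% or more was not computed for the rest within the span windows' range of CpG numbers. At 20% or more, with 5 reads or more in each pool, dense windows there had 30.4% and 34.2%, nearer to the 40.5% and 52.4% of the spans. The 9 windows chosen in the WT pool stood at 48.3% in the Tet1-null pool, and the 12 chosen in the Tet1-null pool stood at 41.7% in the WT pool.

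Of the 5 windows at 50% or more in both pools, 3 lie on chromosome 2. The one from 87609001 to 87610000 has 27 CpG positions and had 54.5% in the WT pool (12 of 22 reads) and 64.7% in the Tet1-null pool (33 of 51). The one from 87713001 to 87714000 has 31 positions and had 52.9% (36 of 68) and 60% (15 of 25). The one from 89717001 to 89718000 has 11 positions and had 75% (18 of 24) and 55.6% (20 of 36). On chromosome 9, the window from 38124001 to 38125000 with 20 positions had 64.5% (20 of 31) and 53.4% (31 of 58). The window from 38225001 to 38226000 with 25 positions had 65.3% (47 of 72) and 70.0% (14 of 20), and it lies in the 100 kb window that fell.

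Windows without a methylated read in one pool had a low level in the other, and together held a large share of its methylated reads. Among 3382 span windows of 1 kb with 5 reads or more in each pool, 74.2% had no methylated read in the WT pool, and their level in the Tet1-null pool was 3.995% (3.795 to 4.21%). They held 42.4% of the methylated reads of the Tet1-null pool in these 3382 windows. Windows at 20% to under 50% in the WT pool had 17.6% in the Tet1-null pool, and those at 50% or more had 34.3% (31.2 to 37.5%). Chosen in the Tet1-null pool, windows with no methylated read had 3.25% in the WT pool (3.03 to 3.49%) and held 35.3% of its methylated reads, and those at 50% or more had 39.4% (36.0 to 43.0%). In the rest of both chromosomes, windows with no methylated read in the WT pool had 3.05% in the Tet1-null pool and held 52.6% of its methylated reads, a larger share than in the spans. Chosen in the Tet1-null pool, such windows of the rest had 2.39% in the WT pool and held 42.1% of its methylated reads. Of 338 single sites with 5 reads or more in both pools, 85.8% had no methylated read in the WT and 82.8% in the Tet1-null pool, compared with 86.7% and 83.5% of such sites in the rest.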

How the data were processed

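Per the labels' protocols, DNA was fragmented and tagged with Tn5 transposase, converted with bisulfite and, after PCR, sequenced (Illumina HiSeq 2000). The authors deposited 1 table per genotype with pooled libraries, giving the methylation level of each CpG site (a fraction) and its count of reads. Level times reads, as deposited, was a whole number at 100% of sites within 0.0005 per read. Build mm9 and bedtools are named in the submitters' processing notes. For the aligner and for duplicate reads the sources used here give nothing. A deposited read filter drops poorly converted reads, which can lower levels in both pools.

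Methylated and total reads were summed per window with Python 3.11.15, numpy 2.4.6, pandas 2.3.3, numba 0.67.0 and scipy 1.17.1, and figures drawn with matplotlib 3.10.9. CpG number counts the positions that at least 1 table lists, which misses positions without reads. Coordinates count from 1, reading the tables as BED; this offset was not checked against a genome. Windows of 100 kb needed 200 reads in each pool and those of 1 kb 5 positions and 20 reads. Windows named were, per span, the 3 highest, 3 lowest, 2 largest rises and 2 largest falls; at 1 kb, those at 50% or more in both pools. Reads carry no molecular identifiers, so copies of 1 molecule can be counted more than once and intervals cover counting error only. Methods were tested on simulated data. The members and lists were chosen with earlier results of these data known.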

Additional observations from a re-analysis of the deposited data

Results flagged for a closer look

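The mitochondrial chromosome, which lies outside the spans and the rest and serves here as a background level alone, carried reads called methylated in both pools. The level on chrM was 1.66% in the WT pool (551 of 33263 reads, 1.52 to 1.80% by Wilson's 95% interval). In the Tet1-null pool it was 1.29% (811 of 63081 reads, 1.20 to 1.38%), and no control sample was available for it. With these levels subtracted, the difference between pools was 1.36 points in the chromosome 2 span and 0.172 points, with an interval of -0.308 to 0.653, in the chromosome 9 span.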

How the results depend on the processing

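Of 131 recomputed values, 117 kept their side of the threshold or stayed within 1.5 times of the count reported. The difference between pools in the chromosome 2 span and the excess of the spans over the rest in both pools had intervals above 0 under every alternative run. The contrast between the spans of chromosomes 2 and 9 was 0.505 points with an interval including 0 as a mean of site levels, and with an interval from the spread between 100 kb windows it was 0.0868 to 2.29. The chromosome 9 difference, whose interval included 0 throughout, took both signs, from -0.459 points at sites listed in both pools to 0.571 points as a mean of site levels. Of the 73 span windows of 100 kb, 0 were called higher and 0 lower with the quasi-binomial test, where 33 and 1 of all 25384 windows were. With the Tet1-null reads thinned to the depth of the WT pool, 2 span windows were called higher and 1 lower, where 2299 and 237 of all 25374 were. At sites listed in both pools 1 span window was called lower (187 of all 25331). Of 36 span windows of 200 kb, 1 was called lower (195 of all 12760). Of smaller span windows, 2 of 61 were called higher at 500 bp (430 of all 135125) and 1 of 542 lower at 2 kb (257 of all 607264). Span windows of 1 kb at 50% or more in the WT pool numbered 15 of 1283 tested with 3 positions and 10 reads, 2 of 40 with 30 reads and 4 of 88 after thinning. In the Tet1-null pool they numbered 5 of 40 with 30 reads and 6 of 88 after thinning. Shares over all windows were not computed for these settings. Fewer windows can be tested with 30 reads or after thinning, and the cause was not tested otherwise. Alternatives chosen after seeing the data were the rest within the span windows' range of CpG numbers, single CpG numbers up to 30, and leaving out each 100 kb window. No paired analysis was possible because the tables pool the libraries, and for the same reason leaving out a library was not run. With a mean of 2.22 and 2.81 reads per listed site in the spans, single sites were not tested.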
